A study of Homo sapiens with 2 samples.

Results

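CYLD and 8 genes that lie next to or near it on the long arm of chromosome 16 were examined in the myeloid leukaemia line HL60 and in its cytarabine-resistant derivative. The 9 genes, namely CYLD, NOD2, SNX20, NKD1, BRD7, ADCY7, HEATR3, SALL1 and TOX3, were taken by name out of 43270 genes and transcripts and were covered by 10 probes. CYLD was chosen by its measured signal, far higher on the resistant array, so its own difference is a description; the others were chosen for their position, to see whether the difference at CYLD extended along the chromosome. The parental group was untreated HL60, an established line of promyelocytic character. The resistant group, R-HL60, was derived from HL60 by prolonged exposure to rising concentrations of cytarabine, a deoxycytidine analogue that blocks DNA synthesis. Both lines were grown in the same medium with fetal bovine serum. The labels do not say whether R-HL60 is 1 clone or a mixed population, or whether drug was present at harvest. Each line was read on 1 Agilent one-colour array, so there is no replicate check, no test between the lines was possible, and the line and the array cannot be told apart.

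CYLD encodes a deubiquitinase that cuts linear and some lysine-linked ubiquitin chains from signalling proteins such as NEMO, TRAF adaptors and RIPK1, and so limits NF-kB signalling. It is a tumour suppressor, named after the skin tumour syndrome cylindromatosis. NOD2, next to it, is a cytosolic receptor for bacterial muramyl dipeptide that signals to NF-kB through RIPK2 in myeloid cells. The other genes act elsewhere: SNX20 is a sorting nexin that binds the selectin ligand PSGL-1, NKD1 is a feedback inhibitor of Wnt signalling, BRD7 is a bromodomain subunit of a SWI/SNF chromatin remodeller, ADCY7 makes cyclic AMP, HEATR3 helps to carry a ribosomal protein to the nucleus, and SALL1 and TOX3 are developmental transcription regulators.

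The stretches just before the start sites of CYLD, of its neighbour NOD2 and of BRD7, whose signal was nearly equal in both lines, are shown because the 3 genes lie close together and their signals differed. RefSeq lists 3 windows for CYLD, and the one shown was picked after the search because it alone held a match. They were taken from RefSeq (GRCh38.p14), where 4 of the 9 genes had an entry, each as the 250 bases before an annotated start, 5′ to 3′ on the strand of the gene. Capitals mark a match to the kB consensus, the sequence bound by NF-kB dimers.
CYLD, chr16:50741836-50742085, plus strand: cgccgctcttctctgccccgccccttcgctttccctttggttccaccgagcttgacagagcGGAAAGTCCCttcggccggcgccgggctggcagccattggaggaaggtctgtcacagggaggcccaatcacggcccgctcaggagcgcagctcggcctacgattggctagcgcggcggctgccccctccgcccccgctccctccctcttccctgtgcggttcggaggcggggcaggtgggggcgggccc
NOD2, chr16:50696698-50696947, plus strand: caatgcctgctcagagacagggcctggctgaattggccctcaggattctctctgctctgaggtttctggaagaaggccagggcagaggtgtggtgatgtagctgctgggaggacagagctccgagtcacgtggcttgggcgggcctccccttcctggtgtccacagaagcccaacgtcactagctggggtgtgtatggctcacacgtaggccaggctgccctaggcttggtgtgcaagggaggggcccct
BRD7, chr16:50368989-50369238, minus strand: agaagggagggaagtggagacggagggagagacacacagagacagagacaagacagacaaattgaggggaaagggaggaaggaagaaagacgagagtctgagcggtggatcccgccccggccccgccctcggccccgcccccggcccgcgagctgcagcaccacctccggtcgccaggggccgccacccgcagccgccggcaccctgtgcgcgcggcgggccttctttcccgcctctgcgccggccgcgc
The capitals before CYLD lie at positions -189 to -180 from this start and are the canonical kB site read on the opposite strand. This motif, searched on both strands, was present in 63 of the 35116 windows of the same length in the table (0.179%), and the kB consensus, which includes it, in 5.21%. Neither was present in the other 2 windows listed for CYLD, which begin further along, in the 2 windows of NOD2, or in the window of BRD7 or of ADCY7. However, the CYLD window at chr16:50741906-50742155 opens on the last base of the marked site. The site thus lies just outside that window, and its absence there reflects where the window was cut. An interferon-response pattern, GAAA repeated after any 2 bases, was held by 3.02% of all windows and TATAAA by 10.72%; they were in none of the 7 windows of the 4 genes. The CYLD window shown held 3 matches to CCAAT and 3 to GGGCGG, and 71.2% of its bases were G or C, against 72.8% and 82.0% in the other CYLD windows. The NOD2 window shown, the first of 2 along the chromosome, had 61.6% and the other 46.4%, and that of BRD7 had 70.8%. CCAAT was present in 32.0% and GGGCGG in 42.6% of all windows. The shares of all windows are per window, while CYLD had 3 windows, so they are not the chance of a match for a gene. The kB motif was searched with the higher NF-kB targets in these arrays already known. A match of letters is a description of the sequence, and binding was not measured here.

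Signals below are the linear intensities of each array. Differences are on the log2 scale, resistant minus parental, after each array was set to its own 75th percentile. The files carry no detection flags, so the median signal of each array, 30.7 for HL60 and 32.8 for R-HL60, served as a floor, and a gene below it on both arrays was given no difference as a result. The 75th percentiles were 292 and 294. On 1 array or both, 23531 genes exceeded the floor. In R-HL60, 185 of them (0.786%) were higher by 2-fold or more and 70 (0.297%) lower. A shift by the median gave 129 and 91, and an offset of 50 units added to every signal gave 66 and 40. The promyelocytic markers were above the floor on both arrays in all 10 cases, with ELANE, the neutrophil elastase gene, 4.59-fold lower and the others within 2-fold. The summed signal of 6 lymphoid markers was 6935 and 9621 in HL60 and R-HL60, that of 5 epithelial markers 1670 and 1874 and that of 6 fibroblast markers 108 and 124. None of these was past 2-fold or listed at 0; EPCAM, CDH1, COL1A1, COL1A2, COL3A1 and LUM were below the floor on both arrays. Their part in the differences below was not tested.

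CYLD had a signal of 305 in HL60 and 25699 in R-HL60. This is 83.9-fold higher in the resistant line, a log2 difference of 6.39. The signal was 9.93 times the floor in the parent and 782 times the floor in the resistant line, so it was well above the floor on both arrays. The difference was the highest among 21838 genes measured in both lines. The array has a single CYLD probe, so no other probe of the gene bears on it, and isoforms cannot be told apart. Different probes of a gene gave differences that varied with an SD of 0.13 at this brightness, an error that leaves out the spread between cultures and arrays. In bulk RNA a higher level in every cell and a larger share of cells with the transcript cannot be told apart, just as fewer cells of a type and less RNA per cell cannot.

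**Figure D1:**
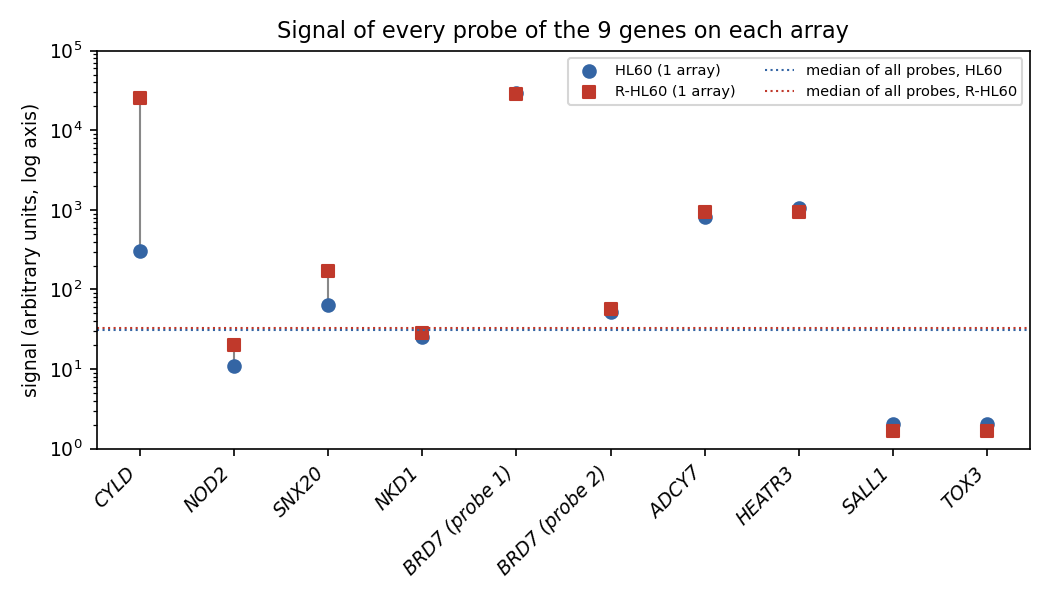
Signal (arbitrary units, log axis) of each of the 10 probes of the 9 genes on the HL60 array (circles) and the R-HL60 array (squares), with the median of all probes on each array as dotted lines. CYLD goes from 305 to 25699 and SNX20 from 64.7 to 168, the pairs of BRD7, ADCY7 and HEATR3 nearly overlie, and NOD2, NKD1, SALL1 and TOX3 lie below both lines.

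SNX20, the second coding gene before CYLD in chromosomal order, was the only neighbour among the 8 that passed 2-fold. Its signal was 64.7 in HL60 and 168 in R-HL60, which is 2.59-fold higher, a log2 difference of 1.37. The parental signal was only 2.11 times the floor. Probes of a gene at this brightness varied with an SD of 0.30, and 0.916% of the genes in this brightness bin were at least 2-fold higher. With 50 units added to every signal, the difference was 0.92, or 1.89-fold, below the 2-fold mark. SNX20 too rested on 1 probe. Its difference ranked at place 52 of those measured on both arrays.

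NOD2, the coding gene directly before CYLD, was below the floor on both arrays. Its signal was 10.9 in HL60 and 20.2 in R-HL60, so the resistant value was the higher one, by 0.89 on the log2 scale as read. Genes as dim as NOD2 differed widely between the arrays, with an SD of 0.61 over 4327 genes, and 9.52% of them had a difference as high or higher. With the floor at the 40th percentile (16.5 and 18.0) NOD2 was above it in R-HL60 alone, which bounds its difference at 1.22-fold or more. No 2-fold difference can be stated for it.

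NKD1, the third coding gene before CYLD, had signals of 25.6 in HL60 and 28.7 in R-HL60, just under the floor on both arrays. Its difference as read was 0.16, and with the floor at the 40th percentile it counts as measured at that value. It lies between SNX20 and BRD7 in chromosomal order.

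BRD7, ADCY7 and HEATR3, further away on the same side, were close to equal in both lines. The brighter BRD7 probe read 29266 in HL60 and 28334 in R-HL60, a difference of -0.06. The other BRD7 probe read 51.6 and 57.2, a difference of 0.14, so both were within 1.5-fold. The sign of the brighter probe is not settled, since it was 0.02 in the authors' normalized table and 0.01 after loess. BRD7 is the only one of the 9 genes with a further probe.

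ADCY7, the adenylyl cyclase of the group, read 809 in HL60 and 951 in R-HL60, a difference of 0.22. HEATR3 read 1072 in HL60 and 939 in R-HL60, a difference of -0.20. Probes of a gene at this brightness varied with an SD of 0.13. Both differences were larger in size, but that SD leaves out the spread between cultures and arrays, and both stay far under 2-fold. Genes of like brightness had a median difference of -0.06 with an SD of 0.24. Among the 4327 genes of like brightness, 6.40% were as high as ADCY7 or higher and 16.3% as low as HEATR3 or lower.

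On the other side of CYLD, SALL1 read 2.03 in HL60 and 1.67 in R-HL60, and TOX3 read 2.02 and 1.67. The SALL1 signal stood at percentile 9.74 of the probes in HL60 and 10.3 in R-HL60. Neither transcript was detectable in either line by this measure, and no direction is given for them.

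In all, 5 of the 9 genes were above the floor on both arrays and 4 on neither. CYLD and SNX20 were at least 2-fold higher, none was 2-fold lower, and 2 of the 4 measured neighbours, SNX20 and ADCY7, had a difference above 0. Beside the share of 0.786% of all genes that were 2-fold higher, 1 of 4 measured neighbours is too few to read as a share, and CYLD itself was chosen for its difference. The differences of the measured neighbours ran in the order SNX20 (1.37), ADCY7 (0.22), BRD7 (-0.06) and HEATR3 (-0.20). SNX20 stood apart from the other 3 beyond the SD of 0.30 at its own brightness. ADCY7 and HEATR3, which share a brightness bin, differed beyond its SD of 0.13. BRD7 and HEATR3 differed by about that SD, but BRD7 lies in a brighter bin with an SD of 0.08. These SDs describe probes of the same gene, not the spread between genes, and leave out that between cultures and arrays. Over genes of like brightness to ADCY7 and HEATR3, the differences had an SD of 0.24. At 3-fold, CYLD alone of the 9 passed, where 0.191% of all genes were higher and 0.123% lower.

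**Figure D2:**
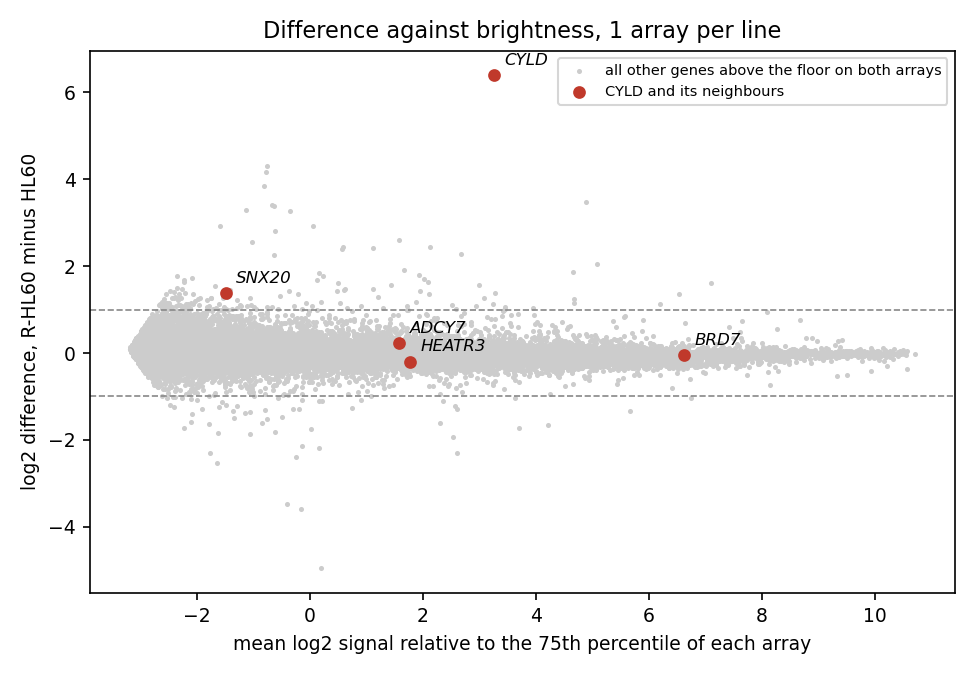
Log2 difference (R-HL60 minus HL60) against mean log2 signal relative to the 75th percentile of each array, for the 21838 genes measured in both lines (grey) with the 5 measured genes of the CYLD region in red; dashed lines mark 2-fold. CYLD stands alone at 6.39, SNX20 lies at 1.37 among dim genes, and ADCY7, HEATR3 and BRD7 lie within the bulk.

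The wider neighbourhood was taken as all genes from 25 protein-coding genes before CYLD to 25 after it in the order of the RefSeq gene table. Of the 189 genes of this stretch, 63 were named on the array; 40 of these were above the floor on both arrays, 2 on 1 array and 21 on neither. Besides CYLD, only SNX20 passed 2-fold in either direction, and it was also the only one past 1.5-fold, which 3.53% of all genes passed upward and 1.38% downward. Without CYLD, the 39 measured genes had a median difference of -0.06 and ranged from -0.50 to 1.37, with 9 of them above 0, against a median of -0.03 over all genes and -0.05 over all protein-coding genes. The genes before CYLD had a median of -0.08 over 19 and those beyond it -0.05 over 20. With CYLD included, the median was -0.05 in this stretch and 0.08 in a nearer one of 10 coding genes either side.

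The nearest measured genes on each side were not equally near. Counted over all genes of the gene table, LOC101927272, SNX20 and BRD7 stand at places -3, -4 and -12 from CYLD. CASC22, CHD9 and LOC102723373 stand at places 28, 41 and 48 beyond it. No gene on the array that the gene table places between CYLD and CASC22 was above the floor, so the flank directly beyond CYLD could not be read from these genes. Of the 43317 names on the array, 20612 had no match in that table. They have no place in this order and were left out. Before CYLD, SNX20 (1.37) and BRD7 (-0.06) were joined by the non-coding LOC101927272, which starts between SNX20 and NOD2 in the gene table. It read 45.8 in HL60 and 59.9 in R-HL60, a difference of 0.38. Beyond CYLD, the non-coding CASC22 read 59.8 and 89.2, a difference of 0.57 on its brighter probe, while its other probe was below the floor. CHD9, a chromatin remodeller, read 2326 and 2263 (-0.05), and LOC102723373 read 44.3 and 45.2 (0.02). The 2 genes above the floor on 1 array were C16orf78, at least 1.44-fold higher in R-HL60, and TENT4B, a poly(A) polymerase, for which the floor in R-HL60 lay as high as the HL60 signal of 32.0, so that no fold can be given.

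**Figure D3:**
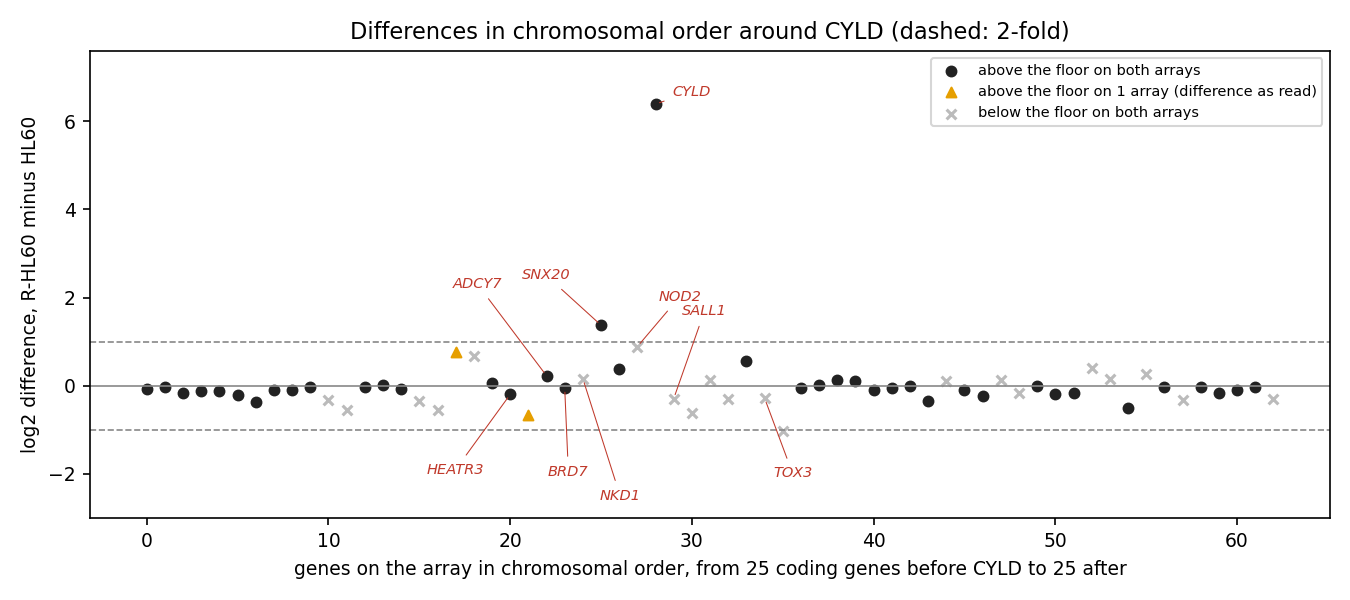
Log2 difference (R-HL60 minus HL60) of the 63 genes on the array around CYLD, in chromosomal order; circles are above the floor on both arrays, triangles on 1 array, crosses on neither, and dashed lines mark 2-fold. CYLD at 6.39 and SNX20 at 1.37 are the only circles outside the dashed lines, and crosses carry no measured difference.

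Chromosome 16 as a whole had 714 genes above the floor on 1 array or both, and 3 of them (0.420%) were 2-fold higher, against 0.786% of all genes. These were CYLD, SNX20 and CRYM, which encodes a thyroid hormone-binding protein and was 2.09-fold higher, from 41.8 to 87.9. The 2 genes that were 2-fold lower (0.280%) were TNFRSF12A, the TWEAK receptor gene, at 2.05-fold and the protease gene PRSS8 at 2.04-fold. CRYM, TNFRSF12A and PRSS8 lie before the widest gap between coding genes of the chromosome, on the side away from CYLD, and were named after their values were seen. The 305 measured genes on the side of CYLD had a median difference of -0.07 and the 386 on the other side -0.04, so the side with CYLD was not higher as a whole.

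CYLD acts with a set of ubiquitin-handling partners, and these were mostly equal in both lines. Of 14 such genes, 12 were above the floor on both arrays, 1 was 2-fold higher and none was lower. For this list and those below, 0.786% of all genes above the floor were 2-fold higher and 0.297% lower. The higher one was TNFAIP3, which encodes A20, another ubiquitin-editing brake on NF-kB, from 545 to 2972 (5.42-fold). The subunits of the linear ubiquitin ligase, RNF31 (0.01), RBCK1 (0.00) and SHARPIN (-0.15), and SPATA2, which bridges CYLD to that ligase (-0.02), did not reach 2-fold. The list median was -0.01.

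Among 23 substrates of CYLD and kinases of the pathways it controls, all of them measured, 1 was 2-fold higher and none was lower, with a median of -0.03. BCL3, an atypical IkB protein that CYLD deubiquitinates, went from 351 to 2151 (6.09-fold). RIPK1 (-0.09), TRAF2 (-0.03), TRAF6 (-0.34) and the kinase genes MAP3K7 (0.05), CHUK (-0.17) and IKBKB (-0.18) were within 1.5-fold, while SMAD7, a TGF-beta inhibitor, was at 0.96 and the kinase gene LCK at -0.74. The dimmer LCK probe, at 134 in HL60 and 67.1 in R-HL60, was just past 2-fold lower, which the count by brightest probe leaves out.

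The NF-kB subunits and feedback targets differed far more. Of 16 genes, 14 were above the floor on both arrays, 8 were 2-fold higher and none was lower, with a median of 1.41. Of all genes above the floor, 0.786% were 2-fold higher. Those 8 were BIRC3 (18.0-fold), NFKB2 (7.04-fold), BCL3 (6.09-fold), ICAM1 (5.90-fold), TNFAIP3 (5.42-fold), RELB (4.14-fold), CD83 (2.97-fold) and NFKBIA (2.38-fold). TNFAIP3, BCL3 and BIRC3 are also the genes past 2-fold in the partner, substrate and NOD2 lists, so these counts are not separate results. The NF-kB list was made with the earlier finding of higher NF-kB targets in these arrays known and is no independent evidence of its direction.

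The pathway of NOD2 had 16 of 19 genes above the floor on both arrays, with 1 of them 2-fold higher, none lower and a median of 0.11. The higher one was again BIRC3, an apoptosis inhibitor and ubiquitin ligase. RIPK2, the kinase that NOD2 recruits, read 3217 and 3642 (0.17), and NOD1, the sister receptor, read 283 and 399 (0.49). CARD9, the adaptor downstream, was at 0.04. Larger differences after BIRC3 were those of CASP1 (0.89) and SLC15A3 (0.69), both past 1.5-fold. The dimmer NLRC5 probe, at 117 in HL60 and 188 in R-HL60, was also past 1.5-fold at 0.68, against 0.29 on the brighter probe. Of the 16 measured genes, 12 had a difference above 0 and 4 below.

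CYLD belongs to the ubiquitin-specific protease family, and no other measured member reached 1.5-fold on its brightest probe. Besides CYLD, 45 family genes were above the floor on both arrays, with differences from -0.35 (USP12) to 0.22 (USP44) on that probe. The median of the family, CYLD included, was -0.03. Dimmer probes above the floor on both arrays passed 1.5-fold for USP49, at 0.66 against 0.19 on its brightest probe, and for USP31, at -0.63 against -0.09, so the probes of these genes disagree. Of the sorting nexin list, 26 genes besides SNX20 were measured, SNX32 was highest at 0.85 and none reached 2-fold. SELPLG, which encodes the PSGL-1 ligand that SNX20 binds, was at 0.31, from 514 to 643.

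The families of the other neighbours held no gene past 2-fold. Of 10 adenylyl cyclases 5 were measured, with ADCY4 at 0.52 on its brighter probe and 0.04 on the other, and a median of 0.02. Of 27 genes of BRD7 and the SWI/SNF complex 26 were measured, with a median of -0.10 and SMARCD3 highest in size at 0.45. Of 25 genes of NKD1 and Wnt signalling 14 were measured, with a median of -0.09 and ZNRF3, a ubiquitin ligase that removes Wnt receptors, at -0.42. Of 8 SALL and TOX genes 3 were measured, with TOX2 at 0.47 and a median of 0.05, and TOX was above the floor in HL60 alone, at least 1.18-fold lower in R-HL60. Of 11 genes of the HEATR family and the ribonucleoprotein that HEATR3 serves, 9 were measured, with RRS1, a ribosome assembly factor, at -0.30 and a median of -0.10.

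**Figure D4:**
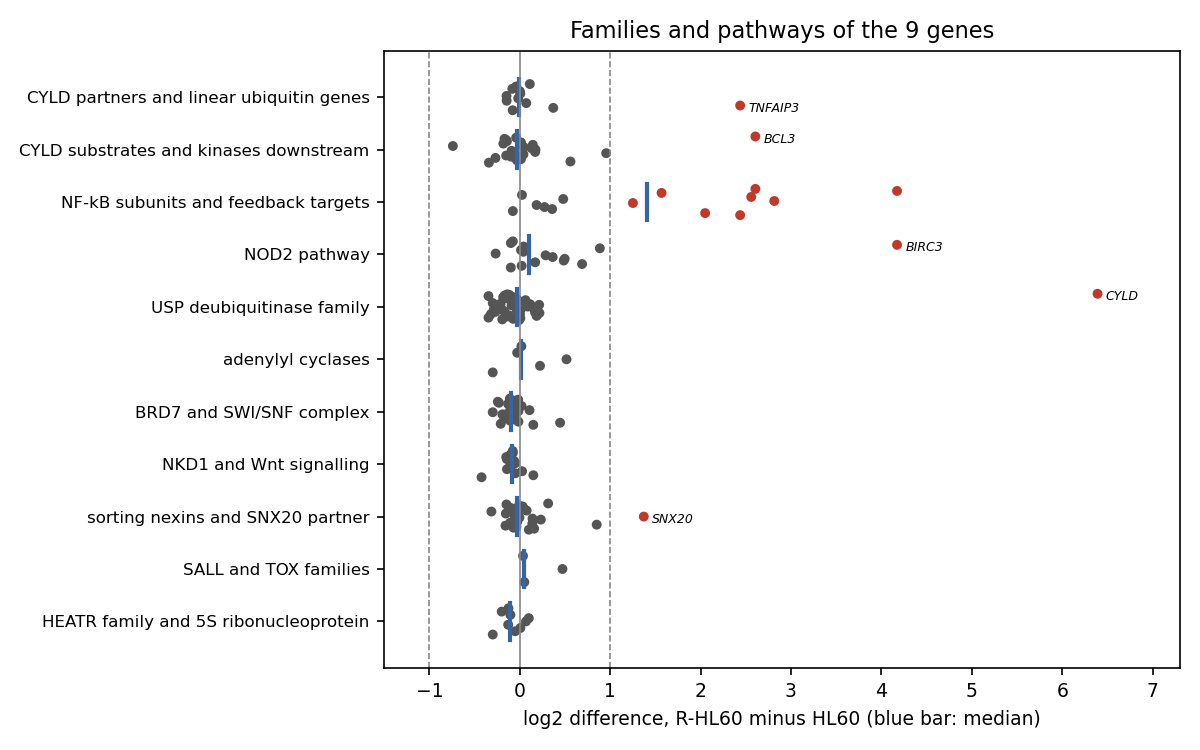
Log2 difference (R-HL60 minus HL60) of each gene above the floor on both arrays in the 11 families and pathways of the CYLD region, with blue bars for the medians, dashed lines at 2-fold and red points beyond them. CYLD and SNX20 are the only red points of their families, and 8 NF-kB genes, unlabelled in their row, lie beyond 2-fold.

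With 1 array per line, the likeness of a gene to CYLD can only be read from the size and direction of its difference. The 5 named genes with the next highest differences were DEFA9P (4.30), BIRC3 (4.17), MIR146A (3.84), CD70 (3.48) and IL4I1 (3.30). None of them lies on chromosome 16.

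The order of the measured genes was the same under each way of setting the arrays to a common scale. CYLD lay between 72.3-fold and 87.4-fold higher in 8 settings, namely the one used here and quantile normalization, a median shift, loess, the authors' normalized table, the offset and 2 other floors. SNX20 lay between 1.89-fold and 2.59-fold. These settings are not all separate checks. The 2 other floors cannot change the difference of a gene that stays above them. The authors' table nearly repeated quantile normalization, with a log2 difference of 6.42 for CYLD in each.

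**Figure D5:**
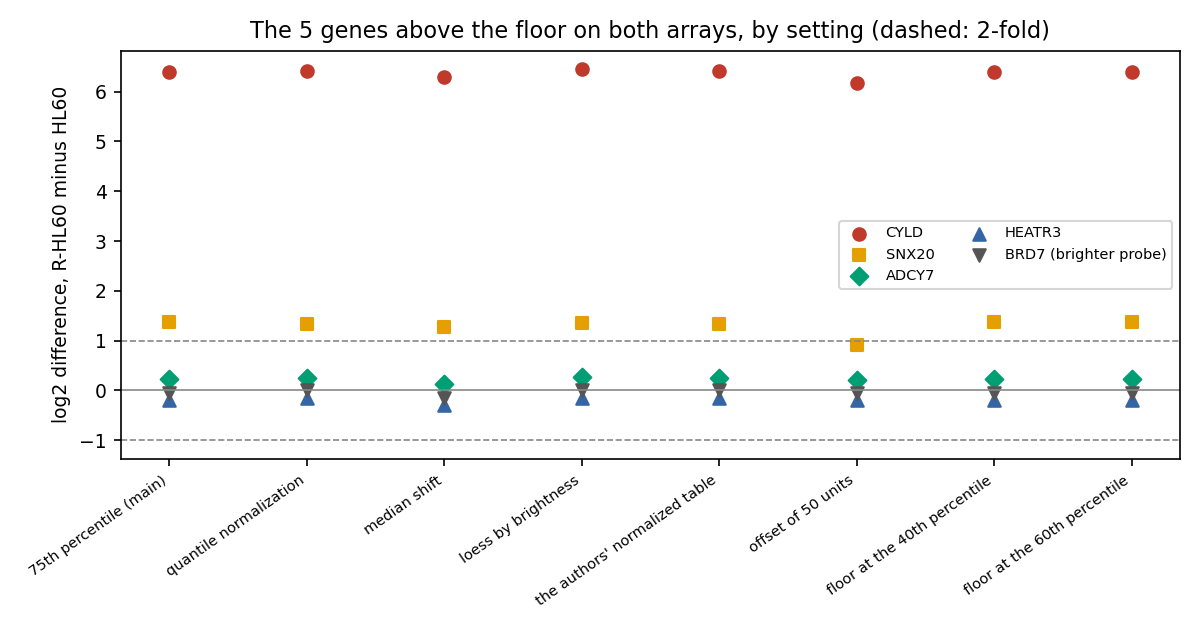
Log2 difference (R-HL60 minus HL60) of the 5 genes of the CYLD region above the floor on both arrays, under 8 settings of normalization, offset and floor; dashed lines mark 2-fold. CYLD stays between 6.18 and 6.45, SNX20 lies below 2-fold with the offset of 50 units alone, and ADCY7, HEATR3 and BRD7 stay near 0.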

How the data were processed

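Total RNA of each line was labelled with Cy3 and read on 1 one-colour array, per the labels' protocols; Agilent Feature Extraction 10.7.3.1 was used, per the submitters' processing notes. The deposited raw files pair a gene name with a linear intensity for every probe. No source used here states the scanner column or the background treatment. A further table by the authors gives normalized intensities, whose sorted values differed between the arrays by at most 1.17%; its method is not stated.

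Log2 signals were set relative to the 75th percentile of their array. The floor was the median signal of the array. A gene was represented by its brightest probe, and members by every probe. A gene above the floor on 1 array has only a bound against the higher of the floor and its own value. Older symbols were updated through RefSeq (GRCh38.p14), which matched 21081 of 43317 names as current and 1567 as an older symbol; it also gave the gene order. A gene was called at 2-fold; with 1 array per line no test was run, and the number of arrays limits the precision. The probe-to-probe SD was 0.19 over 4723 genes. The members and lists were chosen with earlier results of these data known. Named genes were the 9 members; in each list the genes past 2-fold or else the one with the largest difference; neighbours past 1.5-fold and the nearest 3 measured on each side; and the 5 genes most like CYLD. Other genes named were picked with their values in view. Alternatives were 3 normalizations, the authors' table, an offset of 50, floors at the 40th and 60th percentile, probe means, cut-offs of 1.5-fold and 3-fold and windows of 10 and 50 genes. The steps were tested on simulated data. Python 3.11.15, numpy 2.4.6, pandas 2.3.3, statsmodels 0.14.6 and matplotlib 3.10.9 were used.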

Additional observations from a re-analysis of the deposited data

How the results depend on the processing

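Of 416 recomputed values over 15 settings, 402 kept within the probe-to-probe SD of 0.19 or, for counts, within 1.5 times. Part of this was fixed in advance, since another floor leaves the difference of a gene above it unchanged. The authors' table also nearly repeated quantile normalization. No called value changed sign. With the offset of 50 units the difference was 6.18 for CYLD and 0.92 for SNX20, so that 1 of the 9 genes, 1 gene of the wider neighbourhood and 0 sorting nexins were 2-fold higher; the offset shrinks dim signals by construction. At 3-fold the same counts were 1, 1 and 0. With CYLD left out, 1 neighbour was 2-fold higher. At 1.5-fold, 2 substrates and kinases were higher and 1 was lower, and 3 genes of the NOD2 pathway and 2 sorting nexins were higher. With the floor at the 60th percentile the NF-kB median was 0.87, over fewer genes, and the dimmer BRD7 probe was below the floor. Over all genes, 346 were higher and 109 lower with the floor at the 40th percentile, 102 and 50 at the 60th, 831 and 324 at 1.5-fold, and 45 and 29 at 3-fold. The split of chromosome 16 at its widest gap was added after seeing the data. No paired analysis was possible because each line has 1 array. Signals near or below the floor, as those of NOD2, NKD1, SALL1 and TOX3, limit what can be said of these genes.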

Other observations

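Transcripts whose names in the files carry the symbol of a gene of the region were covered by 9 probes of 8 names. Their places in the genome are not paired with these names in the files. Of the 9 probes, 2 were above the floor on both arrays and 7 on neither. The transcript named lnc-SNX20-5 read 1311 in HL60 and 1013 in R-HL60, a log2 difference of -0.38, against 1.37 for SNX20 itself. The one named lnc-SNX20-2 read 38.9 and 33.0, a difference of -0.25. Its R-HL60 signal barely exceeded the floor of 32.8, so this difference is uncertain. Both were lower on the array on which SNX20 was higher, and neither reached 1.5-fold.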
